A study of Mus musculus with 16 samples.

Results

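Interferon response and nucleic acid sensing genes were examined in bone marrow progenitors of mice with reduced Dnmt1, the maintenance DNA methyltransferase that copies CG methylation onto newly made DNA. The genes are a list of 36 interferon-stimulated and sensor genes. Each was read from its brightest probe set, and 33 of the 36 were measured among 22180 genes. Oas1a and Gbp2 lie on probe sets annotated to several genes, and Ifi44 was not found in the annotation used here. The rule behind the list uses no difference between groups.

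The series holds 16 Affymetrix arrays, 4 in each of 4 groups. Dnmt1c/chip MDPs were set against Dnmt1+/+ MDPs, and Dnmt1c/chip cMoPs against Dnmt1+/+ cMoPs. MDPs are macrophage and dendritic cell progenitors (lineage-negative, c-Kit high, CD115+, CD11b-, Ly-6C-), and cMoPs are common monocyte progenitors with the same gate except that they are Ly-6C+. Both were sorted from the bone marrow of mice aged 8 to 12 weeks, and no treatment is named. The labels name the alleles without describing them; in published use c is a null allele and chip a hypomorphic allele, present in every cell of the animal, so the marrow that surrounds the progenitors is mutant too. Nothing in the labels ties an array to an animal, and p-values measure the spread between these arrays. Because the control cMoP titles name both genotypes, groups were taken from the genotype and source labels.

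Interferon-stimulated genes are switched on when type I interferon binds its receptor and a complex that holds Stat2 and Irf9 binds interferon-stimulated response elements near their start sites. The interferons themselves are made when cytosolic sensors such as Ifih1 (MDA5), Ddx58 (RIG-I) and cGAS meet viral or self nucleic acids and signal through Mavs or Sting1. In several cell types, loss of DNA methylation is known to release endogenous retroviral transcripts whose double-stranded RNA engages these sensors, a state called viral mimicry. The question put to these arrays was whether the genes of that response were higher in progenitors with reduced Dnmt1.

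Promoter sequences give the letters through which this response is known to act. RefSeq windows of 300 bases on GRCm38.p6, from 250 bases before to 50 bases after an annotated start, were at hand for 24 of the 33 measured genes, in 31 windows. The core of the interferon-stimulated response element was searched on both strands as GAAA, any 2 bases and GAAA again. It was found in 15 of the 31 windows (48.4%) and in 14 of the 24 genes (58.3%), against 3.44% of 32851 windows and 3.99% of 27025 genes over all promoters. The windows held a median of 6 CG dinucleotides (range 0 to 43), against a median of 7 (range 0 to 67) over all promoters. A match is a description of the letters and not a bound site, and DNA methylation was not measured on these arrays. Below, capitals mark the matches to the response element core (TTTC, any 2 bases and TTTC where the match lies on the other strand) in 3 genes that represent a ubiquitin-like modifier, an RNA-binding effector and a membrane restriction factor. In the window of Xaf1, the member that differed most clearly between the genotypes, that core was not found, and capitals mark its 6 CG dinucleotides. Each sequence runs 5' to 3' on the gene's strand.
Isg15, chr4:156200769-156201068, minus strand: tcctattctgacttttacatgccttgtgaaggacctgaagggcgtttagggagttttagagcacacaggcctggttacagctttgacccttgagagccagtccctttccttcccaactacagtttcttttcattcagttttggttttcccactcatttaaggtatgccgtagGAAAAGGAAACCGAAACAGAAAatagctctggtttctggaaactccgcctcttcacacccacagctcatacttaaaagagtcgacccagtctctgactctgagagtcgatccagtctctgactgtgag
Ifit1, chr19:34640639-34640938, plus strand: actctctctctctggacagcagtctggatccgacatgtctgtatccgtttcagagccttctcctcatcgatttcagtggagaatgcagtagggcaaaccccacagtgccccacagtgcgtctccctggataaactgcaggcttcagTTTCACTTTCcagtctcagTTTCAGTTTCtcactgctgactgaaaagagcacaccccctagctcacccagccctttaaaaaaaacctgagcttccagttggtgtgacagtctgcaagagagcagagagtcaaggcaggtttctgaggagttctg
Ifitm3, chr7:141010695-141010994, minus strand: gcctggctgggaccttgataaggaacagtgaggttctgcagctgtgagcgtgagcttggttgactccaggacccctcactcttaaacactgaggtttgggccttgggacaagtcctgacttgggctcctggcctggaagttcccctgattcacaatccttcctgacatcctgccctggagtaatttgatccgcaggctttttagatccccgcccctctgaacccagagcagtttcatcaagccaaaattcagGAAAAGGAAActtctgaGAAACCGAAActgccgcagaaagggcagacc
Xaf1, chr11:72301379-72301678, plus strand: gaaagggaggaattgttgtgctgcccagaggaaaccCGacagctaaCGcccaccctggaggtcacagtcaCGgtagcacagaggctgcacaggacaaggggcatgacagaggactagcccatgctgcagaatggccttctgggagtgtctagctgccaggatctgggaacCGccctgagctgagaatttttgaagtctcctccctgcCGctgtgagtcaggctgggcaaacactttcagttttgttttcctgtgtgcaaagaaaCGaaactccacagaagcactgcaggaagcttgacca

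In Isg15 the 3 matches overlap and span positions -78 to -57, counted so that 0 is the first base of the annotated transcript. In Ifit1 the 2 matches stand at -104 to -95 and -85 to -76, and in Ifitm3 they lie inside the transcript, at 2 to 11 and 19 to 28. Gbp3, Bst2 and Ifit3 also held 2 matches in a window. No match was found in the windows of Xaf1, Ifi35, Oasl1, Oasl2, Isg20, Irf1, Irf7, Irf9, Ifit2 or Mavs, which says only that these letters are not in these windows.

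All levels are log2 expression values after RMA (robust multi-array average). Array medians lay between 3.43 and 3.62. Dnmt1 checked the genotype labels: it read 8.89, 8.36, 8.97 and 8.79 in c/chip MDPs, against 9.82, 9.81, 9.86 and 9.95 in control MDPs, and 8.82, 8.69, 9.0 and 8.98 in c/chip cMoPs, against 9.80, 9.66, 9.80 and 9.86 in control cMoPs. The groups did not overlap in either cell type, with differences of -1.10 (limma adjusted p = 0.000348) and -0.91 (limma adjusted p = 0.00814) (two-sided exact permutation p = 0.0286 in each, the smallest that 70 arrangements allow). The c/chip MDP arrays also stood apart in markers of other cells and in the gate. A total of 6 of 10 neutrophil granule genes, 4 of 6 megakaryocyte and erythroid genes and 4 of 5 genes of basophils and mast cells rose in them past the adjusted threshold described below. Ly6c2 encodes a Ly-6C antigen. Although MDPs were gated as Ly-6C-, its transcript was already far above the array medians with the control genotype (mean 10.2). Control cMoPs averaged 12.04. The c/chip MDPs averaged 11.27, higher than their controls by 1.06 (SE 0.136). Flt3, a receptor of MDPs that is not part of the named gate, was lower by a log2 difference of -1.96 (SE 0.236). In c/chip cMoPs Flt3 was lower too, at a mean of 5.08, against 6.28 in control cMoPs, and did not pass there (-1.2). Of the c/chip MDP arrays, 3 (replicates 1, 3 and 4) held transcripts of both Xist (9.51 to 10.65) and Y-linked genes (mean 5.27 to 6.42), whereas Xist was at most 5.16 on the other arrays with Y-linked transcripts. The main results that rest on that group are given below with and without these 3 arrays, called mixed for these transcripts alone. Without them the group has 1 array, assumed to vary like the others. The labels do not say whether animals of both sexes were pooled, and the source of these transcripts was not tested. Of 5 B cell genes, Ms4a1, Ebf1 and Pax5 were below the array medians in all 4 groups, Cd79b was above them (group means of 6.82 to 7.90), and Cd79a averaged 4.31 in c/chip MDPs and 3.43 in control MDPs. Of 5 T and NK cell genes, Cd3e, Cd3g and Ncr1 were below the medians in all 4 groups, Klrb1c was above them (4.12 to 4.56), and Gzmb is given below.

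Most of the interferon list lay above the array medians, which are not a detection limit. By the mean over all arrays 24 of the 33 members did so, against 11343 of all 22180 genes. In all 4 groups 22 of the 33 members had a mean above the array medians, among them Ifitm3, Bst2, Mavs, Eif2ak2, Irf1, Stat2, Parp9 and Ifi35. Another 6 lay below the medians in all 4 groups: the 2'-5' oligoadenylate synthetases Oas2 and Oas3 and their relative Oasl2, the antiviral enzyme Rsad2 (viperin), the GTPase Mx1, and Rtp4, an interferon-induced chaperone of receptor proteins. The remaining 5, Ifit1, Oasl1, Mx2, Ddx58 and Isg15, lay between. For a member near or below the medians, a fold difference on these arrays is likely to be smaller than the difference in RNA, and a change in a transcript that stays under the detection range is not visible. Averaged over all 33 members, the arrays read 5.08, 4.85, 4.96 and 4.95 in c/chip MDPs, against 4.86, 5.07, 4.68 and 4.69 in control MDPs. The same mean was 5.01, 4.95, 4.83 and 4.82 in c/chip cMoPs, against 5.01, 4.74, 4.86 and 4.84 in control cMoPs. The genotypes overlapped in both cell types.

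In MDPs, 1 of 33 members, Xaf1, was called higher in c/chip cells, 0 were called lower and 32 did not pass (limma, Benjamini-Hochberg adjustment over all genes, threshold 0.05). That is 3.03% of the members, against 1.95% of all genes called in either direction and 1.26% called higher. At an unadjusted p under 0.05 there were 9 members (27.3%), against 14.3% of all genes. The median difference was 0.11 over the members, 19 of which (57.6%) were above 0, against a median of 0.03 and 54.3% above 0 over all genes. Groups did not overlap for 4 members, 3 higher (Xaf1, Ifi35 and Ifit1) and 1 lower (Mx2), or 12.1%, against 7% of all genes (4.18% higher and 2.82% lower). Without the 3 arrays that held both Xist and Y-linked transcripts, the median of the members was -0.06 and 0 were called. In bulk RNA, fewer cells of a type and less RNA per cell cannot be told apart.

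The precision of the comparison sets what it could have missed. The 95% interval of the difference ended below a doubling (1 on the log2 scale) for 24 of 33 members in MDPs and for 30 of 33 in cMoPs. Over all 22180 genes it did so for 20573 in MDPs and 21318 in cMoPs, a larger share in each. The members whose interval reached a doubling in MDPs were Ifit2, Isg20, Oasl2, Gbp3, Ifih1, Irf7, Xaf1, Ifi35 and Cxcl10. In cMoPs they were Gbp3, Dhx58 and Parp9. Standard errors of single members ran between 0.157 and 0.801, and their median was 0.232. The intervals of Isg15 (-0.65 to 0.32 in MDPs), Rsad2 (-0.31 to 0.53), Oas3 (-0.35 to 0.32) and Zbp1 (-0.41 to 0.33) lay well inside that limit. However, each of these members was close to or below the array medians, where a rise may be compressed. Zbp1, the highest of them, averaged 3.7 in c/chip MDPs and 3.74 in control MDPs.

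**Figure D1:**
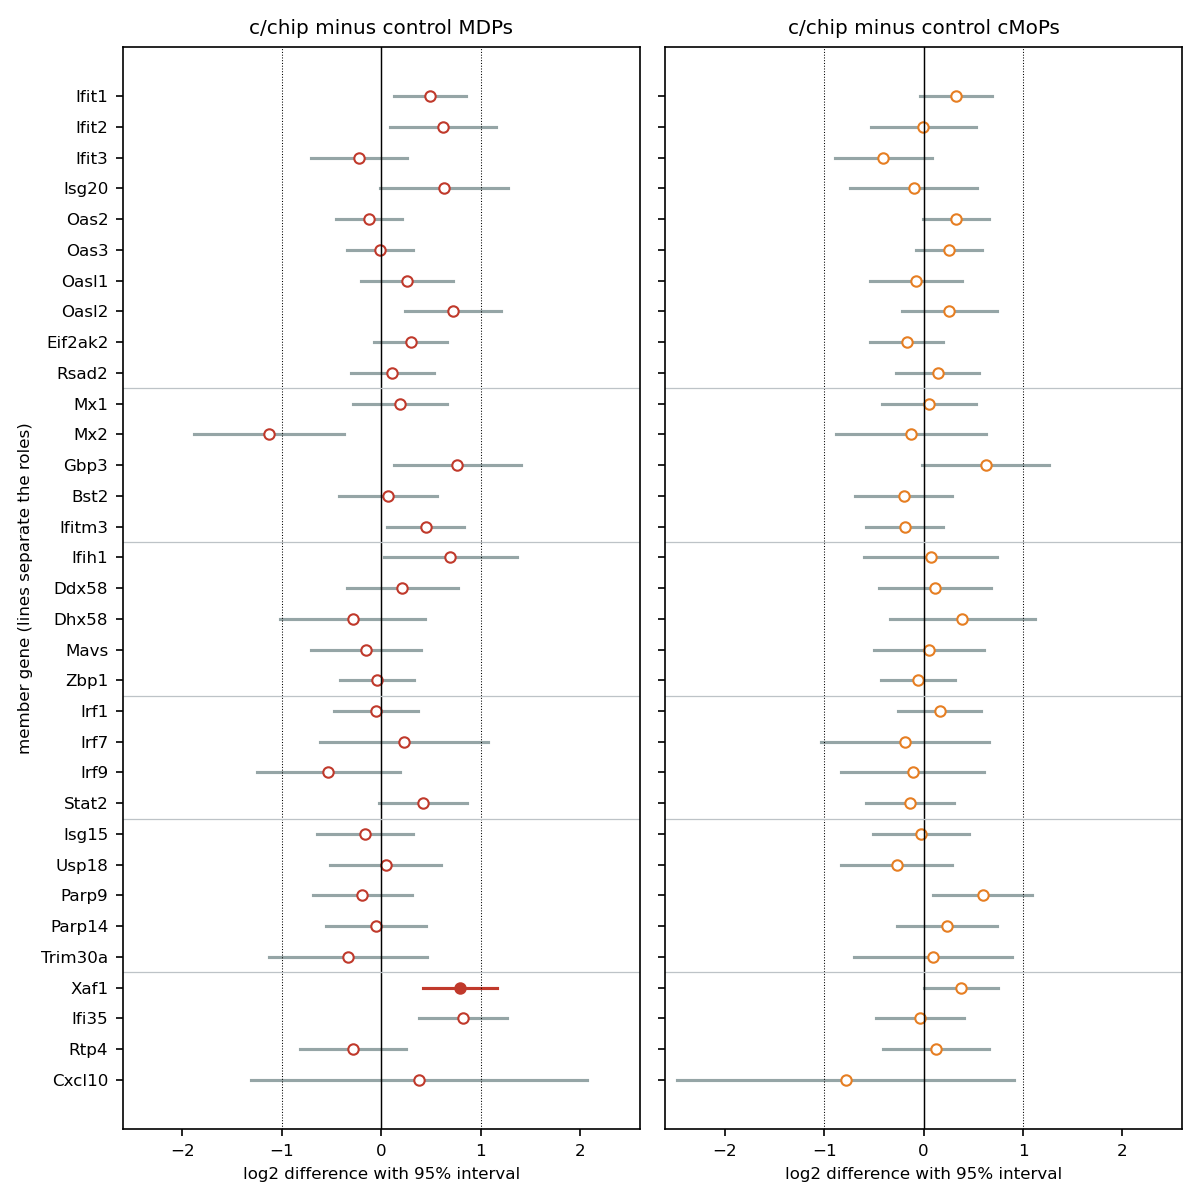
Log2 difference between genotypes (x axis) for each of the 33 measured members (y axis, grouped by role), c/chip minus control, in MDPs (left) and cMoPs (right). Circles are limma estimates, bars 95% intervals, dotted lines a 2-fold difference either way, and the filled circle marks an adjusted p under 0.05. Xaf1 in MDPs is the filled circle, at 0.79, and the circles lie on both sides of 0 in each panel.

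Xaf1, an interferon-induced zinc finger protein that binds the apoptosis inhibitor XIAP, read 7.12, 6.46, 6.20 and 6.59 in c/chip MDPs, against 5.79, 5.92, 5.84 and 5.65 in control MDPs. Every c/chip MDP array lay above every control MDP array. The difference was 0.79 (SE 0.177, 95% interval 0.42 to 1.17, 1.73-fold, limma adjusted p = 0.0309). In cMoPs it read 6.10, 5.51, 5.72 and 5.98 in c/chip cells, against 5.39, 5.56, 5.52 and 5.33 in control cells. Replicate 2 of the c/chip cMoPs lay among the controls, and the difference of 0.37 (SE 0.177) did not pass (limma adjusted p = 1). Over both cell types the mean difference was 0.58 (SE 0.125, limma adjusted p = 0.0334), and Xaf1 was the 1 member of 33 called there, 3.03%, against 0.884% of all genes. The difference between the 2 genotype effects did not pass either (-0.42, SE 0.251, limma adjusted p = 0.68), so a larger effect in MDPs was not shown. Leaving out 1 array at a time ended the MDP call in 5 of 16 fits (c/chip MDP replicates 1 and 4, control MDP replicates 1, 3 and 4), with an adjusted p of up to 0.0836, and the call over both cell types in 11 of 16 (c/chip MDP replicate 4, control MDP replicates 1, 3 and 4, c/chip cMoP replicates 1, 3 and 4, each control cMoP replicate), with an adjusted p of up to 0.0798. Without the 3 mixed c/chip MDP arrays the MDP difference was 0.66 (limma adjusted p = 0.254) and the mean over both cell types 0.52 (limma adjusted p = 0.134).

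Ifi35, an interferon-induced leucine zipper protein, was the member with the largest positive difference in MDPs. It read 6.92, 7.03, 7.81 and 6.71 in c/chip MDPs, against 6.32, 6.56, 6.01 and 6.29 in control MDPs, without overlap. The difference was 0.82 (SE 0.209, 1.77-fold) and missed the threshold (limma adjusted p = 0.0542). In cMoPs the values were 7.08, 6.71, 7.16 and 7.49 in c/chip cells, against 7.18, 7.17, 7.14 and 7.09 in control cells. The c/chip cMoP arrays lay on both sides of the tightly grouped controls, with a difference of -0.03. Control MDPs were thus the low group for Ifi35, and the other 3 groups had means of 7.11 to 7.14. Without the 3 mixed arrays the MDP difference was 0.74 (limma adjusted p = 0.266).

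**Figure D2:**
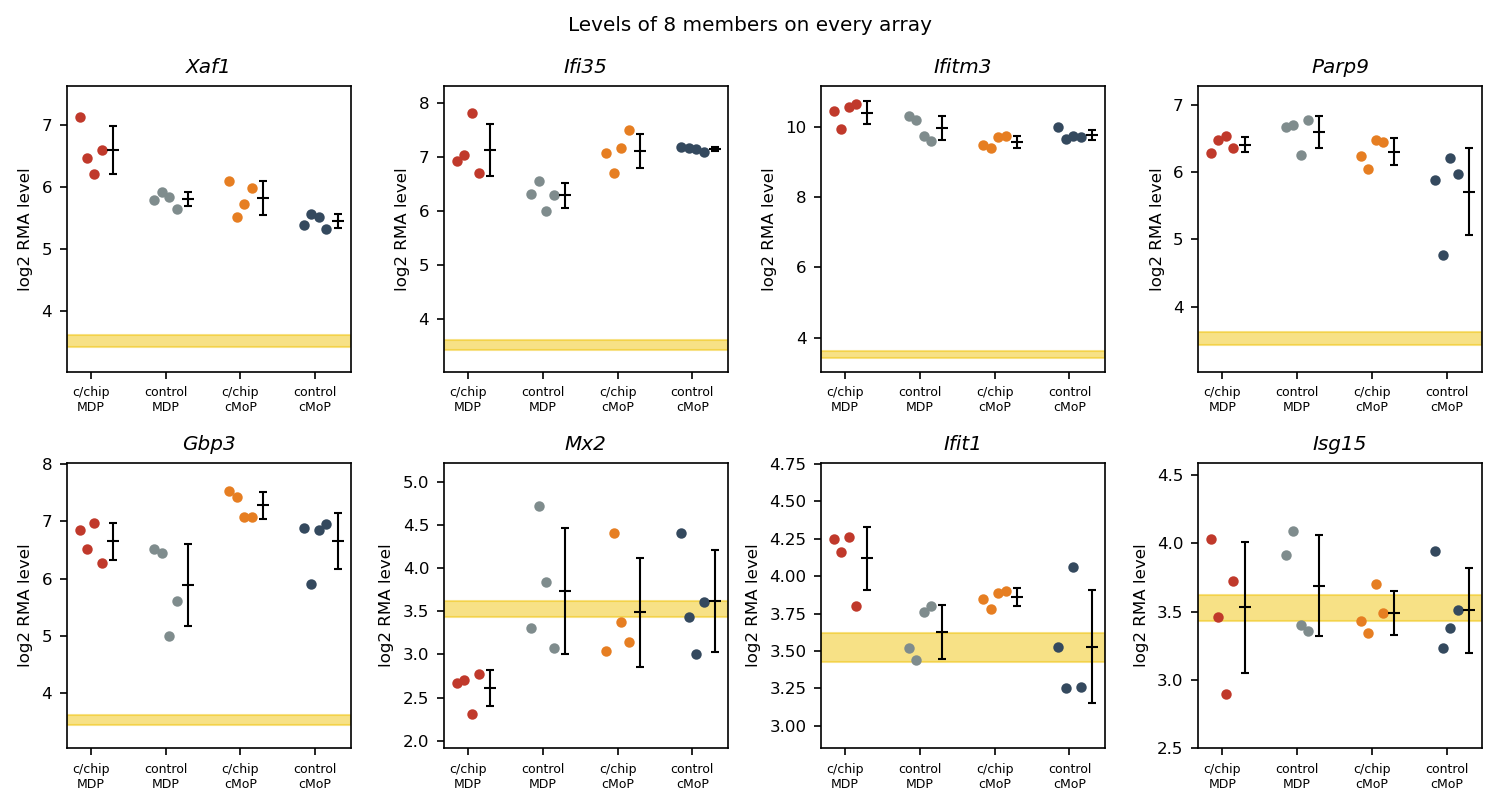
Log2 RMA level (y axis) of 8 members on every array, in c/chip and control MDPs and c/chip and control cMoPs (x axis). Points are arrays, bars the group mean and SD (n = 4), and the yellow band the range of array medians, 3.43 to 3.62. Xaf1 and Ifi35 were without overlap between the MDP genotypes, Ifitm3 was lowest in c/chip cMoPs, and Isg15 and Mx2 lay around the band.

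The RNA-binding effectors and antiviral enzymes, 10 measured of 11, had 0 members called by limma in either cell type. At an unadjusted p under 0.05 there were 3 in MDPs and 0 in cMoPs, against 14.3% and 4.74% of all genes. In MDPs the 10 differences ranged between -0.22 and 0.72, and 7 were above 0, against 54.3% of all genes. Ifit1, which binds RNA that lacks the host's cap methylation, read 4.25, 4.16, 4.26 and 3.8 in c/chip MDPs, against 3.52, 3.44, 3.76 and 3.8 in control MDPs. The c/chip arrays were at or above the highest control array, and the difference of 0.49 (SE 0.172) did not pass (limma adjusted p = 0.174), and was 0.53 without the 3 mixed arrays. In cMoPs Ifit1 read 3.85, 3.78, 3.89 and 3.90 in c/chip cells, against 3.53, 3.25, 4.06 and 3.26 in control cells, where the groups overlapped through control replicate 3. Over both cell types the Ifit1 difference was 0.41 (SE 0.121, limma adjusted p = 0.147). Without control cMoP replicate 3 it was 0.50 and passed (limma adjusted p = 0.0329), and Xaf1 did not pass in that fit. Its neighbour in the family, Ifit3, went the other way in estimate, at -0.22 in MDPs and -0.40 in cMoPs (SE 0.229 each), and neither passed. It read 4.86, 4.78, 4.28 and 4.34 in c/chip cMoPs, against 5.38, 5.01, 4.77 and 4.71 in control cMoPs, with overlap.

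Oasl2, a relative of the oligoadenylate synthetases with ubiquitin-like domains, read 3.50, 2.83, 3.57 and 3.61 in c/chip MDPs, against 2.42, 2.88, 2.65 and 2.69 in control MDPs. The groups overlapped through c/chip replicate 2, and the difference of 0.72 (SE 0.227) did not pass (limma adjusted p = 0.126). The gene was below the array medians in all 4 groups, and without the 3 mixed arrays, which leave replicate 2 alone in its group, its difference was 0.17. Oas2 and Oas3, which make the second messenger that activates RNase L, differed by -0.13 and -0.02 in MDPs and by 0.33 and 0.26 in cMoPs. Eif2ak2, the RNA-activated kinase PKR, differed by 0.29 in MDPs and -0.17 in cMoPs. Rsad2 differed by 0.11 and 0.14. Ifit2 and the exonuclease Isg20 differed by 0.62 and 0.63 in MDPs but by 0.00 and -0.10 in cMoPs. Oasl1 differed by 0.26 in MDPs and -0.07 in cMoPs. None of these passed in either cell type. The MDP differences without the 3 mixed arrays were -0.11 for Ifit2, 0.52 for Isg20 and -0.18 for Oasl1.

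Among the GTPases and membrane restriction factors, 5 measured of 6, 0 were called by genotype in limma. At an unadjusted p under 0.05 there were 3 in MDPs and 0 in cMoPs, against 14.3% and 4.74% of all genes. Mx2, a dynamin-like antiviral GTPase, had the most negative difference of all members. It read 2.67, 2.70, 2.31 and 2.77 in c/chip MDPs, against 3.31, 4.73, 3.84 and 3.07 in control MDPs. All c/chip MDP arrays lay below the control MDP arrays and below the array medians, and the difference of -1.13 (SE 0.358, 2.18-fold lower) did not pass (limma adjusted p = 0.127), and was -1.04 without the 3 mixed arrays. In cMoPs the Mx2 arrays overlapped, at 3.04, 4.41, 3.38 and 3.14 in c/chip cells, against 4.41, 3.44, 3.0 and 3.61 in control cells. Gbp3, a guanylate-binding protein induced by interferon gamma, read 6.85, 6.52, 6.97 and 6.27 in c/chip MDPs, against 6.51, 6.45, 5.00 and 5.60 in control MDPs. In cMoPs it read 7.53, 7.42, 7.08 and 7.07 in c/chip cells, against 6.88, 5.91, 6.85 and 6.95 in control cells. The cMoP genotypes did not overlap and the MDP genotypes did, and Gbp3 passed in neither (0.76 in MDPs, limma adjusted p = 0.239, and 0.63 in cMoPs, limma adjusted p = 1, SE 0.303 each) nor over both (0.69, SE 0.214, limma adjusted p = 0.169). Without 1 array the Gbp3 difference was as small as 0.47 in MDPs (control replicate 3 left out) and 0.38 in cMoPs (control replicate 2 left out), and without the 3 mixed arrays it was 0.63 in MDPs. Bst2 (tetherin), which holds budding virions at the cell surface, differed by 0.07 in MDPs and by -0.20 in cMoPs. It read 7.60, 6.82, 7.90 and 7.66 in c/chip cMoPs, against 7.56, 7.62, 7.63 and 7.97 in control cMoPs, with replicate 2 of the c/chip cMoPs the lowest. Mx1 differed by 0.19 and 0.05. Many mouse strains are known to carry a defective Mx1, and the strain is not given in the labels.

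The nucleic acid sensors and their adaptor Mavs, 5 genes, showed no call by genotype in either cell type. In MDPs 1 of the 5, Ifih1, had an unadjusted limma p under 0.05, against 14.3% of all genes. In cMoPs 0 did, against 4.74%. Ifih1 read 6.05, 5.26, 5.65 and 4.90 in c/chip MDPs, against 5.38, 5.42, 3.97 and 4.31 in control MDPs. The difference of 0.69 (SE 0.317) did not pass (limma adjusted p = 0.328), and control MDP replicates 3 and 4 were the low arrays. It was 0.43 without control replicate 3 and 0.49 without the 3 mixed arrays. Dhx58 (LGP2), the sensor that modulates the other RIG-I-like receptors, read 5.32, 4.40, 4.85 and 4.30 in c/chip MDPs, against 5.72, 5.72, 3.87 and 4.72 in control MDPs, a difference of -0.29 (SE 0.344, limma adjusted p = 0.785) that ran between -0.67 and -0.05 without 1 array (control MDP replicates 3 and 1) and was -0.61 without the 3 mixed arrays. In cMoPs it read 5.45, 5.51, 5.59 and 5.65 in c/chip cells, against 5.11, 4.57, 5.59 and 5.37 in control cells, a difference of 0.39 (SE 0.344, limma adjusted p = 1). Control MDP replicates 1 and 2 were above replicates 3 and 4 for Dhx58, Ifih1, Gbp3 and Ifitm3 alike, a split within the group that widened its spread for these genes. The same arrays split by sex: Xist was 11.27 and 11.36 in replicates 1 and 2 and 3.89 and 3.58 in replicates 3 and 4, and the Y-linked mean was 2.61 and 3.07 in replicates 1 and 2 and 7.12 and 7.14 in replicates 3 and 4. The mean of the immediate early genes, described with Cxcl10 below, split them too. It was 7.89 and 8.20 in replicates 1 and 2 and 6.71 and 7.45 in replicates 3 and 4. Within this group sex, replicate number and that mean cannot be told apart. With the Y-linked mean as a covariate the MDP differences were -0.24 for Dhx58, 0.80 for Ifih1, 0.84 for Gbp3 and 0.50 for Ifitm3, and none passed. Ddx58 differed by 0.21 in MDPs and 0.11 in cMoPs. Mavs differed by -0.16 and 0.05, and the nucleic acid sensor Zbp1, which drives necroptosis, by -0.04 and -0.05.

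Of the 4 transcription factors 0 were called by limma. In either cell type 0 had an unadjusted p under 0.05, against 14.3% of all genes in MDPs and 4.74% in cMoPs. Irf9, the DNA-binding subunit of the interferon-activated complex, read 6.05, 4.53, 5.05 and 6.03 in c/chip MDPs, against 5.97, 5.73, 6.33 and 5.76 in control MDPs. Replicates 2 and 3 of the c/chip MDPs were the lowest, and the difference of -0.53 (SE 0.341) did not pass (limma adjusted p = 0.525). It was -0.24 without c/chip replicate 2, and -1.42 (limma adjusted p = 0.195) without the 3 mixed arrays, which leave that replicate alone in its group. Its partner Stat2 differed by 0.42 (SE 0.209, limma adjusted p = 0.38) in MDPs and by -0.13 in cMoPs. Irf7, the factor that amplifies interferon production, was variable, from 2.77 to 5.24 in control MDPs, and differed by 0.23 (SE 0.4). Irf1 differed by -0.05 in MDPs and 0.16 in cMoPs.

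The genes of ubiquitin-like and ADP-ribosyl modification, 5 in all, also had 0 called by genotype in limma. At an unadjusted p under 0.05 there was 1 in cMoPs, Parp9, against 4.74% of all genes, and 0 in MDPs, against 14.3%. In MDPs 4 of 5 differences were below 0, against 10143 of 22180 over all genes. Isg15, the ubiquitin-like modifier whose promoter is shown above, read 4.03, 3.46, 2.90 and 3.72 in c/chip MDPs, against 3.91, 4.09, 3.40 and 3.36 in control MDPs. It read 3.43, 3.34, 3.70 and 3.49 in c/chip cMoPs, against 3.94, 3.23, 3.38 and 3.51 in control cMoPs. The genotypes were interleaved in both cell types, with differences of -0.16 and -0.02 (SE 0.23 each). Usp18, the protease that removes Isg15 from proteins and dampens the receptor, differed by 0.04 in MDPs and by -0.27 in cMoPs (SE 0.264, -0.13 without c/chip cMoP replicate 3), where it read 3.83, 4.11, 3.36 and 3.8 in c/chip cells, against 4.02, 3.95, 4.10 and 4.08 in control cells. Parp9, which binds ADP-ribose and acts with the ubiquitin ligase Dtx3l, read 6.24, 6.05, 6.48 and 6.44 in c/chip cMoPs, against 5.88, 4.76, 6.21 and 5.97 in control cMoPs. The difference of 0.59 (SE 0.237) did not pass (limma adjusted p = 0.964) and was 0.28 without control cMoP replicate 2, the array at 4.76. Trim30a, a ubiquitin ligase that restrains Toll-like receptor signalling in mice, read 5.11, 4.91, 4.88 and 4.98 in c/chip MDPs, against 4.01, 5.84, 6.56 and 4.83 in control MDPs. Its c/chip arrays lay inside the wide control range, and the difference of -0.34 (SE 0.376, limma adjusted p = 0.763) turned to 0.08 without control replicate 3.

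Cxcl10, a chemokine that draws CXCR3-bearing lymphocytes and is strongly induced by interferon, was the most variable member. It read 5.46, 5.21, 3.42 and 3.46 in c/chip MDPs, against 3.88, 4.36, 4.08 and 3.71 in control MDPs. It read 5.51, 7.50, 3.71 and 3.27 in c/chip cMoPs, against 5.99, 7.01, 3.73 and 6.40 in control cMoPs. High and low arrays occurred in 3 of the 4 groups, and the differences of 0.38 in MDPs and -0.78 in cMoPs (SE 0.801 each) did not pass (limma adjusted p = 0.897 and 1). The MDP difference was 1.20 without the 3 mixed arrays, and without 1 array the cMoP difference ran between -1.62 and -0.21 (c/chip cMoP replicates 2 and 4). Beside it, the mean of 12 immediate early genes such as Fos and Jun, which respond within minutes to stress and handling, ran between 5.25 and 7.50 in c/chip MDPs, against 6.71 to 8.20 in control MDPs. It ran between 5.16 and 7.54 in c/chip cMoPs, against 5.69 to 8.00 in control cMoPs. The 5 arrays with an immediate early mean under 6 all had Cxcl10 under 4. Control MDP replicates 1 and 4 also had Cxcl10 under 4, with immediate early means of 7.89 and 7.45. Control MDP replicate 2 had the highest immediate early mean of all arrays, 8.20, and Cxcl10 at 4.36. With that mean as a covariate the Cxcl10 difference in cMoPs was 0.10. Its part in the result was not tested further. Rtp4, the last of the induced genes without another role here, differed by -0.28 in MDPs and 0.13 in cMoPs.

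**Figure D3:**
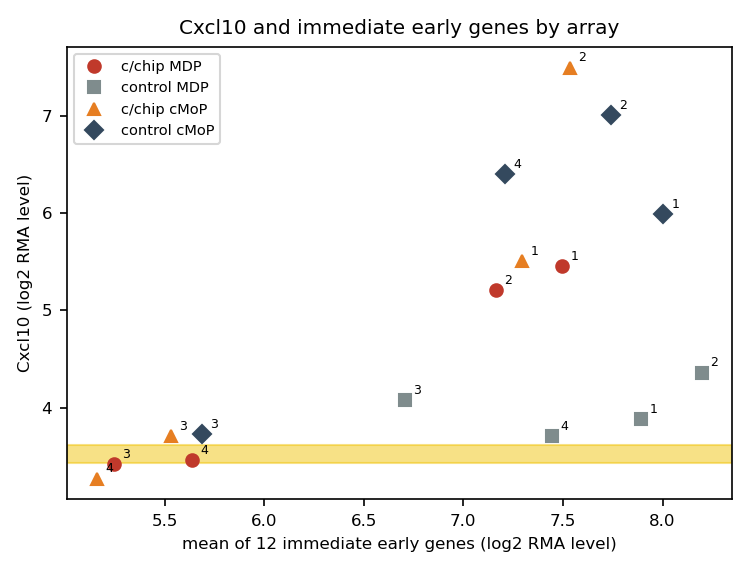
Cxcl10 (y axis) against the mean of 12 immediate early genes (x axis), both in log2 RMA levels, on each of the 16 arrays, with replicate numbers beside the symbols of the 4 groups. The yellow band is the range of array medians, 3.43 to 3.62, and the 5 arrays at the left, from 3 groups, all have Cxcl10 below 4. Control MDP replicates 1 and 4, further to the right, are also below 4.

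In cMoPs 0 of 33 members were called by genotype, against 0.113% of all genes, and 2 members, Parp9 and Xaf1, had an unadjusted p under 0.05, against 4.74% of all genes. The median difference over the members was 0.05, with 17 of 33 above 0 (51.5%), against a median of -0.01 and 47.3% above 0 over all genes. Gbp3 was the 1 member whose groups did not overlap, 3.03%, against 3.87% of all genes. Sex was not balanced between these groups. Xist was high in control cMoP replicates 1 and 2 (10.79 and 10.99) and in c/chip cMoP replicate 1 (10.9). On the other cMoP arrays Xist was at most 5.16 and Y-linked transcripts were present. With the Y-linked mean as a covariate 0 members were called in cMoPs. The most negative estimates belonged to Cxcl10, Ifit3, Usp18 and Bst2, and the largest to Gbp3, Parp9, Dhx58 and Xaf1, all given above. Of the marker genes with calls in MDPs, 0 of 10 for neutrophil granules, 0 of 6 for megakaryocytes and erythroid cells and 0 of 5 for basophils and mast cells were called in cMoPs, also at an unadjusted p under 0.05. Over both cell types 22 of 33 differences were above 0 (66.7%), against 50.6% of all genes, with a median of 0.09.

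A direct test of whether the genotype effect differed between cMoPs and MDPs called 0 of 33 members, against 0.0586% of all genes. At an unadjusted p under 0.05 there were 3, against 8.52% of all genes. Ifi35 had -0.86 (SE 0.296, limma adjusted p = 0.405), Ifitm3 -0.63 (SE 0.26, limma adjusted p = 0.513) and Parp9 0.78 (SE 0.335, limma adjusted p = 0.531). No member was therefore shown to respond differently in the 2 progenitors. The values without the 3 mixed arrays were -0.77 for Ifi35, -0.18 for Ifitm3 and 0.72 for Parp9, and without control cMoP replicate 2 that of Parp9 was 0.47.

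Between cell types of control mice, 2 of 33 members differed (6.06%, against 4.56% of all genes). Ifi35 rose in control cMoPs, where it read 7.18, 7.17, 7.14 and 7.09, against 6.32, 6.56, 6.01 and 6.29 in control MDPs. The difference was 0.85 (SE 0.209, limma adjusted p = 0.025). Parp9 fell in control cMoPs, where it read 5.88, 4.76, 6.21 and 5.97, against 6.67, 6.70, 6.25 and 6.78 in control MDPs. Replicate 3 was the highest cMoP array and still below the lowest MDP array, and the difference was -0.89 (SE 0.237, limma adjusted p = 0.0392). Without control cMoP replicate 2, the array at 4.76, it was -0.58 and still passed. Control replicates served in both this and the genotype comparison, so the low Ifi35 of control MDPs and the low Parp9 of control cMoPs enter each. Leaving out 1 array lost the Ifi35 call in 7 of 16 fits, each without a control array (MDP replicates 1, 3 and 4, cMoP replicates 1 to 4), with an adjusted p of up to 0.0834. The Parp9 call was lost in 8 of 16 (control MDP replicates 1, 2 and 4, control cMoP replicates 1 and 4, c/chip cMoP replicates 1, 3 and 4), with an adjusted p of up to 0.102.

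Between cell types of c/chip mice, 2 other members fell in cMoPs (6.06%, against 3.29% of all genes in either direction and 1.49% lower). Ifitm3, a membrane protein that blocks the fusion of entering viruses, read 9.48, 9.40, 9.70 and 9.75 in c/chip cMoPs, against 10.44, 9.95, 10.57 and 10.66 in c/chip MDPs. The groups did not overlap, and the difference was -0.82 (SE 0.184, limma adjusted p = 0.0179). In control mice it read 9.98, 9.65, 9.75 and 9.70 in cMoPs, against 10.31, 10.20, 9.74 and 9.59 in MDPs, a difference of -0.19 that did not pass. Xaf1 differed by -0.77 between c/chip cMoPs and c/chip MDPs (SE 0.177, limma adjusted p = 0.0217), and by -0.35 between control cMoPs and control MDPs, where the groups did not overlap either (limma adjusted p = 0.352). Leaving out c/chip MDP replicates 3 or 4 or c/chip cMoP replicates 1 or 2 lost the Ifitm3 call, with an adjusted p of up to 0.0608. Leaving out c/chip MDP replicate 1 or c/chip cMoP replicates 2 or 3 lost that of Xaf1, with an adjusted p of up to 0.0791. Without the 3 mixed arrays the differences were -0.37 for Ifitm3 (limma adjusted p = 0.67) and -0.64 for Xaf1 (limma adjusted p = 0.231). Groups did not overlap for 4 of 33 members between control cell types (12.1%, against 10.8% of all genes) and for 6 of 33 between c/chip cell types (18.2%, against 10.1%).

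The genes around the response were read from further lists of 148 genes, of which 130 were measured. In MDPs 4 of the 130 rose and 1 fell (3.85%, against 1.95% of all genes), and in cMoPs 0 were called, against 0.113% of all genes. In MDPs 32 of the 130 had an unadjusted limma p under 0.05, against 14.3% of all genes. In cMoPs 3 of the 130 did, against 4.74% of all genes. All 5 MDP calls (Ifngr1, Irf8, Rnf125, Iigp1 and Apol9b) were lost with only the 2 MDP groups in the fit (limma adjusted p of 0.0953 to 0.245). Of 19 measured interferon genes, the ligands, 0 were called in any comparison, with 2 at an unadjusted p under 0.05 in MDPs and 0 in cMoPs. Ifnb1 averaged 2.33 ± 0.42 in c/chip MDPs and 1.92 ± 0.12 in control MDPs (SD, n = 4 each), below the array medians, with a limma adjusted p of 0.315. Both chains of the type I receptor were well above the medians: Ifnar1 averaged 8.26 ± 0.16 in c/chip MDPs and 8.43 ± 0.18 in control MDPs, while Ifnar2 averaged 10.11 ± 0.32 in c/chip MDPs and 10.46 ± 0.07 in control MDPs (SD, n = 4 each), and neither passed.

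Among 18 receptor and signalling genes, Ifngr1 rose and Irf8 fell in c/chip MDPs. Ifngr1, the ligand-binding chain of the interferon gamma receptor, averaged 9.15 ± 0.12 in c/chip MDPs and 8.35 ± 0.36 in control MDPs (SD, n = 4 each). The difference was 0.80 (SE 0.154, limma adjusted p = 0.0137) without overlap, and it passed in all 16 fits without 1 array but not with only the 2 MDP groups in the fit (limma adjusted p = 0.132). Over both cell types Ifngr1 differed by 0.54 (limma adjusted p = 0.0221), the 1 gene of the 130 called there (0.769%, against 0.884% of all genes). That call was lost with the immediate early covariate and in 2 of 16 fits without 1 array (c/chip cMoP replicate 3, control cMoP replicate 1). Irf8, which is needed for monocyte and dendritic cell development, averaged 10.75 ± 0.15 in c/chip MDPs and 11.34 ± 0.04 in control MDPs (SD, n = 4 each). The difference of -0.58 (SE 0.128, limma adjusted p = 0.0278) was lost in 6 of 16 such fits (c/chip MDP replicates 1 and 2, each of the 4 control MDP replicates), with an adjusted p of up to 0.0774. Ifngr1 was also higher in control cMoPs than in control MDPs, by 1.08. Without the 3 mixed arrays the differences were 0.83 for Ifngr1 and -0.63 for Irf8, with limma adjusted p of 0.195 and 0.223.

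Among 21 genes of DNA and endosomal sensing, Rnf125, a ubiquitin ligase known in human cells to turn over RIG-I, rose in c/chip MDPs. It averaged 8.82 ± 0.60 in c/chip MDPs and 7.28 ± 1.06 in control MDPs (SD, n = 4 each), with overlap, and the call (1.54, SE 0.384, limma adjusted p = 0.0493) did not hold in 14 of the 16 fits without 1 array, all but those without c/chip MDP replicate 3 or control MDP replicate 2. The difference was 1.6 without the 3 mixed arrays (limma adjusted p = 0.289). Cgas, the cytosolic DNA sensor, averaged 5.26 ± 0.09 in c/chip MDPs and 5.67 ± 0.03 in control MDPs (SD, n = 4 each), lower without overlap, and missed the threshold (-0.42, SE 0.114, limma adjusted p = 0.0756, and -0.32 without the 3 mixed arrays). Of 11 genes of nucleic acid clearance and self-RNA editing 0 were called by genotype in limma. In either cell type 0 had an unadjusted p under 0.05, against 14.3% of all genes in MDPs and 4.74% in cMoPs. The RNA-editing enzyme Adar differed by -0.21 in MDPs and -0.06 in cMoPs, and the dNTPase Samhd1 by 0.21 and 0.00. Between cell types, 5 of 21 sensing genes were called higher in cMoPs of control mice (Tlr8, Ticam1, Ikbke, Tank and Nlrx1, by 0.69 to 1.5), against 2.84% of all genes, and 16 did not pass. In c/chip mice 4 of 21 were called higher in cMoPs (Cgas, Aim2, Unc93b1 and Ikbke, by 0.47 to 1.04), against 1.8% of all genes, and 17 did not pass. None of the 21 was called lower in either, and Ikbke was the 1 gene called in both.

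A longer list of 61 other measured interferon-stimulated genes stood further from 0 in MDPs than the members did. Its median difference was 0.31, and 48 of 61 were above 0, against a median of 0.03 and 54.3% over all genes. Among those with a mean above the array medians, 35 of 43 were above 0 and the median was 0.32. Of these 43, 0 were called, against 3.41% of all genes with a mean above the medians. Iigp1 and Apol9b, both outside the 43, were the 2 of 61 called (3.28%, against 1.95% of all genes), and 0 fell. An unadjusted limma p under 0.05 was reached by 17 of the 61 in MDPs, against 14.3% of all genes. In cMoPs 3 of the 61 reached it, against 4.74% of all genes. Iigp1, an immunity-related GTPase, averaged 2.64 ± 0.18 in c/chip MDPs and 1.73 ± 0.31 in control MDPs (SD, n = 4 each), below the array medians, with a difference of 0.90 (SE 0.174, limma adjusted p = 0.0141). Apol9b, an apolipoprotein L gene, averaged 3.85 ± 0.37 in c/chip MDPs and 3.01 ± 0.27 in control MDPs (SD, n = 4 each), with a difference of 0.84 (SE 0.193, limma adjusted p = 0.0337) that was lost in 5 of 16 fits without 1 array (c/chip MDP replicates 1 and 2, control MDP replicates 1, 2 and 3), with an adjusted p of up to 0.0954. In cMoPs the median of the list was 0.07, 37 of 61 were above 0 and 0 were called. The median in MDPs ran between 0.25 and 0.37 without 1 array, and it was 0.04 without the 3 mixed arrays. Without them Apol9b still passed (1.30, limma adjusted p = 0.0438) and Iigp1 did not (0.78, limma adjusted p = 0.283).

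**Figure D4:**
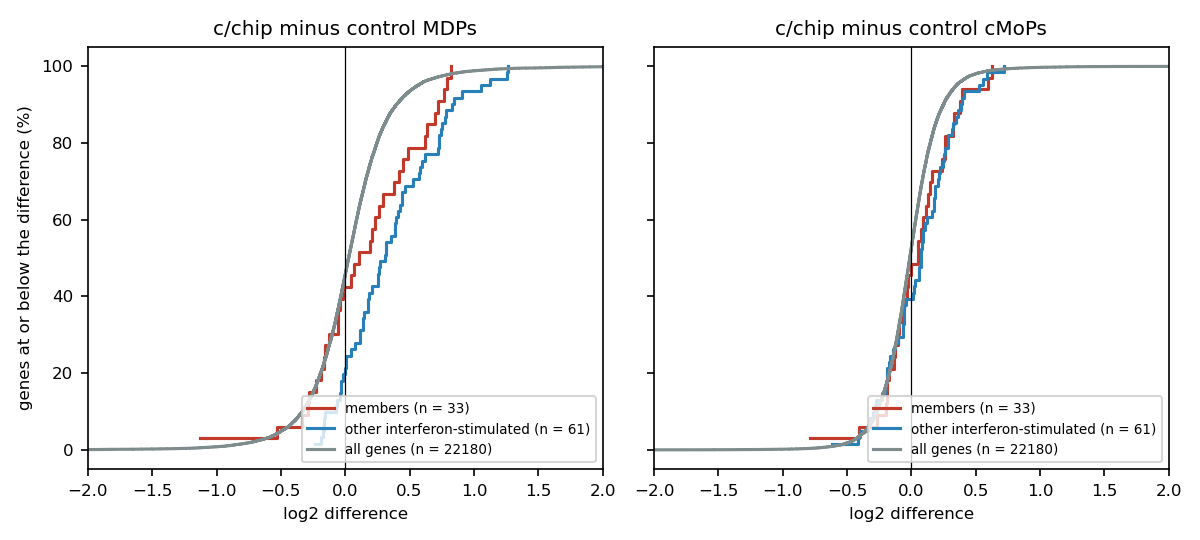
Cumulative share of genes (y axis, percent) at or below a log2 difference (x axis), c/chip minus control, in MDPs (left) and cMoPs (right). Lines are the 33 members, 61 other interferon-stimulated genes and all 22180 genes. In MDPs the line of the other interferon-stimulated genes lies to the right of all genes, with a median of 0.31 against 0.03, and in cMoPs the medians are 0.07 and -0.01.

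Transcripts of genes used as markers of other cell types moved with genotype in the same MDP arrays. Some of these genes also differed between the control progenitors. Of the 10 neutrophil granule genes 5 were called higher and 0 lower in control cMoPs than in control MDPs, against 2.84% of all genes called higher. Of the 6 megakaryocyte and erythroid genes 0 were called higher and 2 lower. Whether the RNA came from other cells or from the progenitors was not tested. The mean of 10 neutrophil granule genes was 8.57 to 10.22 in c/chip MDPs, against 6.93 to 8.24 in control MDPs. The mean of 6 megakaryocyte and erythroid genes was 5.60 to 6.86 in c/chip MDPs, against 3.88 to 4.78 in control MDPs, and that of 5 basophil and mast cell genes 6.22 to 7.68 in c/chip MDPs, against 5.10 to 5.89 in control MDPs. Plasmacytoid dendritic cells are the cells that make most type I interferon. The mean of 8 of their genes was 4.05 to 4.44 in c/chip MDPs, against 4.64 to 5.17 in control MDPs. Siglech and Cox6a2 fell, and the other 6 of the 8 did not pass. Of the 8 differences 6 were below 0 and 2 above, those of Ly6d and Pacsin1. Spib, Ccr9 and Klk1 were below the array medians in all 4 groups. Of 5 T and NK cell genes Gzmb rose, at a mean of 6.72 in c/chip MDPs, against 4.37 in control MDPs. All 12 immediate early genes were below 0 by genotype in MDPs (median -1.28), and 0 were called. The part of these differences in the MDP results of Xaf1, Ifngr1, Irf8, Rnf125, Iigp1, Apol9b and the longer list was not tested. Without the 3 mixed arrays the median was 1.46 over the granule genes, 1.22 over the megakaryocyte and erythroid genes and 0.79 over the basophil and mast cell genes, against 1.87, 1.37 and 1.64 with them. The genes called were 3, 0 and 1 without the 3 arrays, against 6, 4 and 4 with them. The median of the immediate early genes was -0.15 without them, and Gzmb differed by 1.77 (limma adjusted p = 0.0881), against 2.35 with them.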

How the data were processed

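Transcript levels were measured in sorted MDPs and cMoPs on 16 arrays. The deposited series matrix gives log2 values per probe set. Per the submitters' processing notes the authors used affy, RMA and limma, with versions not given in the sources used here. A second table was not used, since its 16 value columns carry names found in no label. Of 41345 probe sets, 23521 had 1 gene symbol in the platform annotation, 1820 had several and 16004 had none. Gene names rest on that annotation, whose identifiers are not of the array type the design text names. For the 1082 genes with several probe sets the brightest by mean was kept, which gave 22180 genes, of which 21994 matched RefSeq by Entrez identifier and 0 changed symbol. Whether probe sets separate close copies in the Ifit, Oas, Mx, Gbp and Trim30 families is not given.

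In R 4.3.3 with limma 3.58.1, all 16 arrays entered 1 model of 4 group means (lmFit and eBayes, prior of 4.72 degrees of freedom beside 12 residual). P-values were adjusted by Benjamini-Hochberg over all genes, with a threshold of 0.05. No filter on low values was applied. Intervals are 95% from the moderated SE, and the number of arrays limits the precision. The highest correlation between 2 arrays was 0.9893, and none were merged. Genes were named by rule: Dnmt1, every member past the threshold, the 4 highest and 4 lowest members in each genotype comparison, and other pathway genes called by genotype; Ifih1, Isg15, Cgas and other members or genes given by value were added for their role or after their values were seen. The members, lists and tests were chosen with earlier results of these data known. The fit was tested on simulated data. Promoters came from RefSeq tables. Alternatives tried were other probe set rules, scalings, fits, covariates and left-out arrays.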

Additional observations from a re-analysis of the deposited data

Results flagged for a closer look

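In 9 of 132 groups of 4 arrays (33 members in 4 groups), 1 array lay far from the other 3, by Dixon's test at its 95% critical value; chance marks about 1 in 20 groups. In c/chip MDPs, replicate 2 was low for Ifit2 (4.54, others 5.49 to 5.57) and Oasl2 (2.83, others 3.50 to 3.61). In c/chip cMoPs, replicate 2 was high for Oasl2 (3.51, others 2.65 to 2.73) and low for Zbp1 (3.41, others 3.86 to 3.91) and Trim30a (5.17, others 5.52 to 5.59), and replicate 1 was high for Ddx58 (4.26, others 3.34 to 3.39). In control MDPs, replicate 4 was low for Parp14 (5.13, others 6.10 to 6.17). In control cMoPs, replicate 2 was low for Gbp3 (5.91, others 6.85 to 6.95) and replicate 4 high for Bst2 (7.97, others 7.56 to 7.63). None of these members was called in a comparison.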

How the results depend on the processing

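Members called, of 33, under the alternatives were as follows where they moved. By genotype in MDPs, 2 were called (Ifi35 added) among genes above the median mean level, where 24 members were tested, and 2 with a trended, robust fit; 0 were called with only the 2 groups compared and 0 without the 3 c/chip MDP arrays that held both Xist and Y-linked transcripts, an alternative chosen after seeing the data. Over both cell types, 0 were called with the immediate early mean as a covariate (Xaf1 adjusted p = 0.0657) and 0 without those 3 arrays. Between control cell types, 1 was called with median centring (Parp9 adjusted p = 0.0515), 1 with only the 2 groups compared and 1 without the 3 arrays, whereas 3 were called with the Y-linked mean as a covariate (Rtp4 added) and 3 with the immediate early mean (Cxcl10 added). Between c/chip cell types, 1 was called with only the 2 groups compared and 0 without the 3 arrays. Leaving out 1 array gave 0 to 2 calls by genotype in MDPs, 0 to 0 in cMoPs and 0 to 1 over both, 0 to 2 between cell types in either genotype, and 0 for the difference between the genotype effects. Without control cMoP replicate 3 the member called over both was Ifit1, not Xaf1. No called member changed sign under an alternative. Among the members with the largest estimates by genotype, those that changed sign were Cxcl10 in cMoPs (0.10) and over both cell types (0.91) with the immediate early covariate, and over both without the 3 arrays (0.21); without 1 array, Cxcl10 over both cell types ran from -0.62 to 0.09, Bst2 in cMoPs from -0.34 to 0.03 and Trim30a in MDPs from -0.77 to 0.08. Over all 33 members, 12 in MDPs and 15 in cMoPs changed sign without some 1 array. The median of the members ran between -0.02 and 0.11 without 1 array in cMoPs, and between -0.11 and 0.01 between control cell types, where it was at most 0.06 under the other alternatives. The cause was not tested.

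Over all genes, 432 were called by genotype in MDPs, against 264 with array weights, 64 with only the 2 groups compared, 165 without the 3 arrays and 214 to 505 without 1 array. In cMoPs 25 were called, against 60 with array weights and 15 to 28 without 1 array. Over both cell types 196 were called, against 109 with the immediate early covariate and 128 to 241 without 1 array. Between c/chip cell types 730 were called, against 482 with only the 2 groups compared, 372 without the 3 arrays and 437 to 761 without 1 array.

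Replicate numbers do not pair the arrays by label, and same-numbered arrays correlated between -0.045 and 0.214 in their deviations from the group means. With the replicate block the member counts stayed at 1 in MDPs, 0 in cMoPs, 1 over both, 2 and 2 between cell types and 0 for the difference of effects, and 389 genes were called in MDPs. Dnmt1 stayed lower in both cell types under every alternative run. A change in a member below the array medians may be compressed, or not visible where the transcript stays under the detection range.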
